A study of Mus musculus with 6 samples.

Results

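The genes described here are *Akap5*, 5 other genes of A-kinase anchoring proteins (*Akap1*, *Akap8*, *Akap9*, *Akap12* and *Akap13*) and 4 genes of protein kinase A subunits (*Prkaca*, *Prkacb*, *Prkar1a* and *Prkar2a*), 10 of the 18324 gene rows of the count table. They were found by mouse symbol, because the human symbols in the table are often those of other genes: the *Akap5* row carries C3orf30, and *Prkar1a* and *Prkar2a* both carry PRKAR2B. *Akap5* was chosen by its large and variable share of counts, so its values are described and not tested. The other 9 were chosen as its family and as the enzyme it anchors. All 10 passed the filter on low counts, which left 11324 genes for testing.

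The cells were B16-F10, an established mouse melanoma line grown in culture and sorted by light scatter, which melanin alters, into high-pigmented cells (HPC) and low-pigmented cells (LPC). No other treatment or genetic change is named for either group. There were 3 libraries per group, and the title of each HPC library shares a suffix with that of 1 LPC library. The suffixes 16-9-15, 18-8-14 and 1-9-14 are called pairs 1, 2 and 3 here, and the labels do not say what the suffix marks. Nothing says that the libraries came from separate cultures, so p-values measure only the spread between these libraries, which may be technical. Sequencing was from the 3′ end of mRNA, so a transcript's count does not grow with its length.

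Protein kinase A is a holoenzyme of regulatory and catalytic subunits. Cyclic AMP binds the regulatory subunits, and the catalytic subunits are then free to phosphorylate targets such as the transcription factor CREB. Anchoring proteins hold the regulatory subunits at membranes, organelles or the nucleus, and many also bind phosphatases and other kinases. In melanocytes the melanocortin receptor MC1R raises cyclic AMP, and CREB drives *Mitf*, the master regulator of the pigment genes.

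Libraries held 3819605 to 7311131 gene counts. Pair 2 stood apart: a single row, RP23-81C12.3, a name absent from the reference tables, made up 53.9% of HPC and 27.1% of LPC gene counts there and 3.54% to 5.03% in the other pairs. Reads in no annotated gene were 29.5% and 24.5% of tallied reads in pair 2 and 12.4% to 17.9% elsewhere. The part of these library features in the results was not tested. All 7 melanocyte markers (*Dct*, *Tyrp1*, *Tyr*, *Pmel*, *Mlana*, *Sox10* and *Mitf*) had rows, and their counts, as unscaled CPM of gene counts, summed to 1999 to 26994 in HPC and 4528 to 22519 in LPC. Summed markers of leukocytes (2 of 6 had rows), fibroblasts (3 of 6), keratinocytes (1 of 5) and endothelium (2 of 4) stayed under 15 on the same scale in every library, each highest in the HPC library of pair 2. *Ptprc*, *Krt5*, *Krt14* and *Cdh5* were among those with no row. Of the melanocyte markers, *Mitf* had 939, 50 and 2777 counts in HPC of pairs 1, 2 and 3 and 689, 134 and 2860 in LPC. Pair 2 was thus the lowest for *Mitf* in both groups.

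The *Akap5* transcript contains a copy of the start of another RNA. *Bc1* is a small noncoding RNA known from rodent neurons, and the ID family of short interspersed repeats derives from it. In GENCODE vM21 (GRCm38), *Bc1* lies at chr7:144914470-144914637 on the plus strand and is 168 bases long. Its first 75 bases were found, with 75 of 75 identical, on the opposite strand of the *Akap5* mRNA at chr12:76333418-76333492, within the 3′ untranslated region and 661 bases from the end of the 6687-base transcript. *Akap5* itself lies at chr12:76324891-76334153 on the plus strand. The first 30 of the 75 shared bases of *Bc1* are shown, 5′ to 3′ and in capitals because all are identical, since reads that lie within the shared stretch cannot be assigned between the genes by sequence.

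Bc1: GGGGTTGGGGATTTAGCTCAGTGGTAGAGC

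No other gene among the vM21 transcripts had an exact copy of these 75 bases on either strand. Stretches of at least 60 bases with at least 90% identity were present in transcripts of 41 genes, of which 28 had a row in the table, and *Akap5* was the only one of the 10 genes among them. This search was made after the values were seen. Where in the *Akap5* gene its reads lay was not analysed here, and the strand setting of the counting is not given in the sources used here.

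The *Akap5* row was among the most abundant in the data and differed mainly between pairs. It held 91077, 5024 and 21401 counts in HPC of pairs 1, 2 and 3 and 56720, 12693 and 24237 in LPC. As a share of gene counts this was 1.95% (Wilson 95% interval 1.93% to 1.96%), 0.132% and 0.326% in HPC and 1.24% (1.23% to 1.25%), 0.265% and 0.332% in LPC. The intervals reached at most 0.0125 percentage points to either side and cover counting error only. Both libraries of pair 1 were far above the other 4, and the groups overlapped. The row ranked 2nd and 3rd of all rows in HPC and LPC libraries of pair 1, and between 17th and 25th in the others.

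The low share in pair 2 depended on the denominator. Without the 3 rows that took over 5% of gene counts in some library (RP23-81C12.3, *mt-Rnr2* and *Malat1*), the *Akap5* share was 2.10%, 0.361% and 0.351% in HPC and 1.31%, 0.441% and 0.351% in LPC. Pairs 2 and 3 then lay close together, and pair 1 remained apart. In normalised CPM, on library sizes scaled by the trimmed mean of M-values and used from here on, HPC had 14818, 2924 and 2502 and LPC 9374, 3629 and 2544.

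Averaged over both libraries of a pair, *Akap5* was 2.22 higher in pair 1 than in pair 3 on the log2 scale. *Akap5* was chosen for a share that varies between pairs, so the comparisons here follow from that choice and test nothing. Among the 11324 tested genes it ranked 343rd from the top, and 3.88% differed by as much in either direction. Pair 2 differed from pair 3 by 0.37, a size that 80.1% of tested genes reached. Of 79 tested genes in the other cAMP lists described below, 0 differed between pairs 1 and 3 by as much as *Akap5*; the nearest was *Nr4a3*, an orphan nuclear receptor gene induced by cAMP, which was lower in pair 1 by a log2 difference of -2.13.

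**Figure D1:**
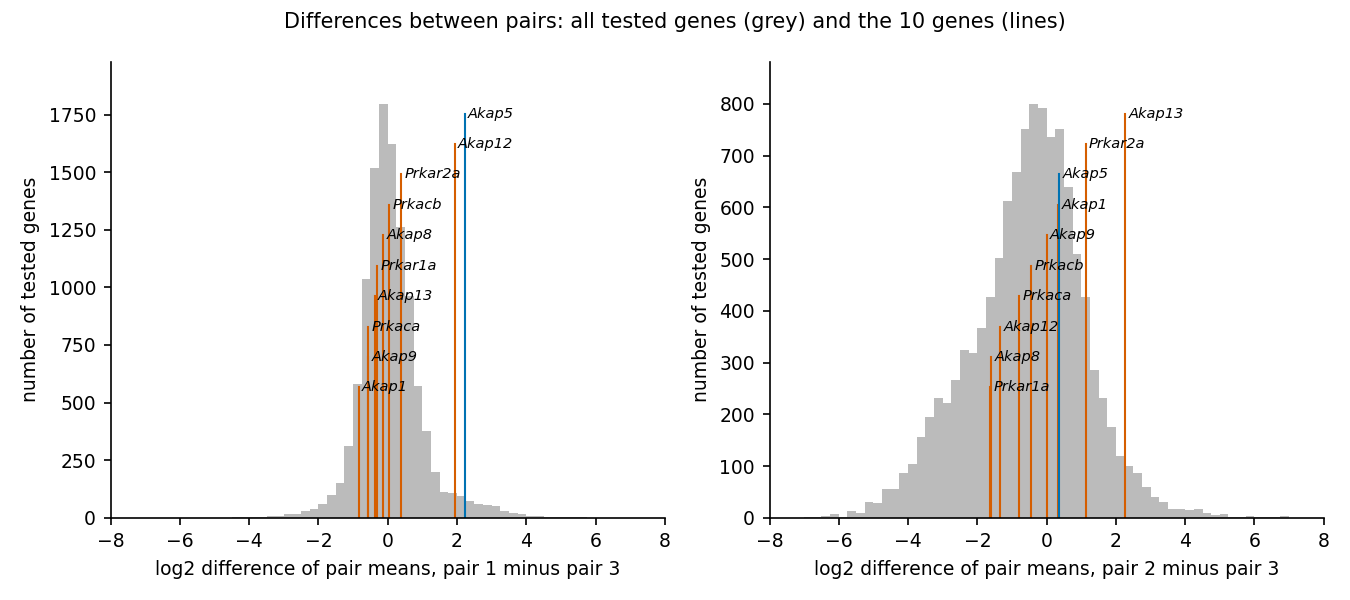
Histograms of the log2 difference between pair means (HPC and LPC averaged) for all tested genes, pair 1 minus pair 3 on the left and pair 2 minus pair 3 on the right; the vertical axis counts genes, and lines mark the 10 genes at their values (line height only spaces the names). *Akap5* at 2.22 and *Akap12* at 1.93 lie in the right tail of the left panel, and in the right panel *Akap13* is the highest of the 10 at 2.26.

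Between pigment groups *Akap5* averaged 6748 ± 6992 CPM in HPC and 5182 ± 3670 CPM in LPC (each SD, n = 3). The difference was smaller than the spread in either group. Within pairs 1, 2 and 3 the log2 difference, HPC minus LPC, was 0.66, -0.31 and -0.02, so only in pair 1 was the HPC library higher. The fitted log2 fold change of 0.38 became -0.95 without the HPC library of pair 1 and 1.14 without the LPC one. These fits had no block, so the high level of the remaining pair 1 library counted for its group alone.

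A few other rows followed *Akap5* closely. By Pearson's correlation of log2 CPM over the 6 libraries, among 7781 other genes averaging at least 10 CPM, the 5 most similar were CT033751.1 (r = 0.9991), *Lrrc17* (0.9957), Gm22292 (0.9956), *Vps8* (0.9952) and Gm26383 (0.9946). These correlations describe 6 libraries that fall into pairs and share their depth and composition. *Lrrc17*, which encodes a leucine-rich repeat protein, had 24700, 1317 and 5685 counts in HPC and 14968, 4005 and 6517 in LPC. The number of *Akap5* counts per *Lrrc17* count was 3.69, 3.81 and 3.76 in HPC and 3.79, 3.17 and 3.72 in LPC. This ratio varied 1.20-fold over the 6 libraries, while the CPM of *Akap5* varied 5.92-fold. For CT033751.1 the ratio lay between 35.7 and 38.9, a 1.09-fold range, and for *Vps8*, which encodes a subunit of an endosomal tethering complex, between 11.9 and 14.6.

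*Lrrc17* also carries the *Bc1* sequence: 74 of the 75 bases, on the same strand as the mRNA, at chr5:21575448-21575522 in its 3′ untranslated region. No *Bc1*-like stretch of that length and identity was found in *Vps8* transcripts of vM21, and CT033751.1, Gm22292 and Gm26383 are not named in that annotation. *Bc1* itself had 469, 2 and 93 counts in HPC and 306, 38 and 123 in LPC. It was highest in both libraries of pair 1, by a log2 difference of 2.36 over pair 3, but was low in the HPC library of pair 2, and its r with *Akap5* was 0.789. Of the genes with a *Bc1*-like stretch, 17 besides *Akap5* averaged at least 10 CPM. Their median r with *Akap5* was 0.39, against 0.09 for all 7781 genes, and 1 of them, *Lrrc17*, exceeded 0.9, as did 1.97% of all. Their r ranged from -0.61 for *Pgap1* to 0.9957 for *Lrrc17*, and the next highest were *Mrpl33*, a mitochondrial ribosomal protein gene (0.85), and *Kif15*, a kinesin gene (0.83). The part of the shared sequence in the *Akap5* counts was not tested.

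**Figure D2:**
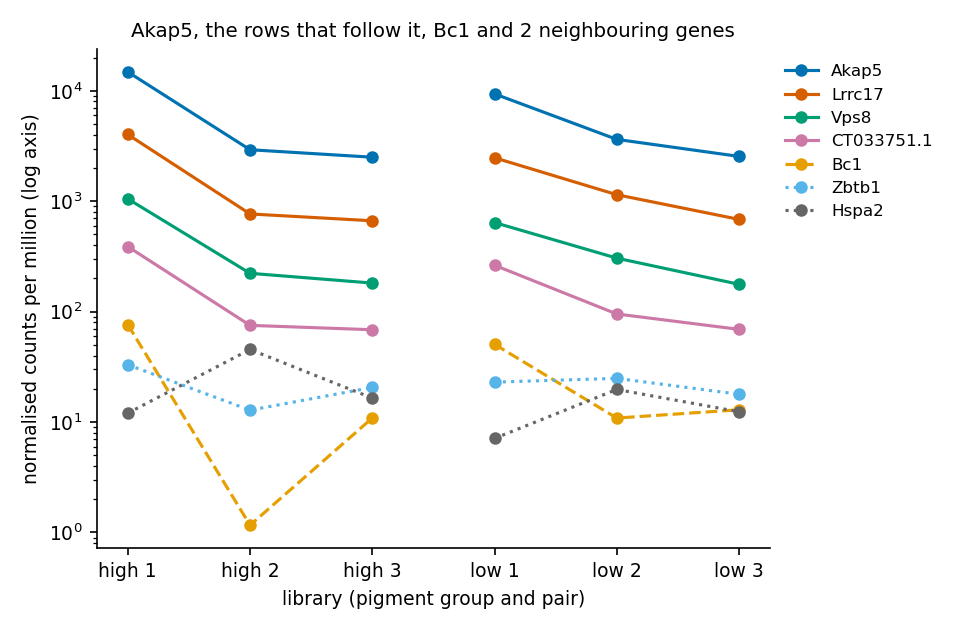
Normalised CPM on a log axis in the 6 libraries (HPC, marked high, or LPC, marked low, pair 1 to 3) for *Akap5*, 3 of the rows most similar to it, *Bc1* and 2 genes near *Akap5* on the chromosome; lines join the libraries of a group only to guide the eye. *Lrrc17*, *Vps8* and CT033751.1 run parallel to *Akap5*, *Bc1* is highest in pair 1 but falls to 1.16 in the HPC library of pair 2, and *Zbtb1* and *Hspa2* do not.

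Genes near *Akap5* on chromosome 12 did not share its pattern. On the side of the start of *Akap5*, the folate enzyme gene *Mthfd1* had 140, 0 and 138 counts in HPC and 158, 4 and 123 in LPC. On the far side, the zinc finger gene *Zbtb1* had 203, 22 and 176 and then 139, 87 and 170 counts, and the heat shock protein gene *Hspa2* had 74, 78 and 141 and then 43, 69 and 118. Between pairs 1 and 3 the log2 differences of *Mthfd1*, *Zbtb1*, *Zbtb25* and *Hspa2* were 0.74, 0.52, 0.35 and -0.61, against 2.22 for *Akap5*. These 4 genes were chosen after the values were seen.

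For the remaining 9 genes no difference between HPC and LPC passed the test, and the spread of the libraries was large (common biological coefficient of variation 71.6%). The test over all libraries had no term for the pairs, so its standard errors include differences between pairs. In these bulk samples, fewer cells with a transcript and less of it per cell cannot be told apart. By the edgeR quasi-likelihood test (p values adjusted by Benjamini-Hochberg), 0 of them passed an adjusted p of 0.05, the same as the 0% of all tested genes, and each had an adjusted p of 0.9996. At an unadjusted p under 0.05 there were 0 of the 9, against 38 of all tested genes (0.336%), and DESeq2 also called 0 genes (0%), with 134 (1.18%) at an unadjusted p under 0.05. In 0 of the 10 genes did the HPC and LPC libraries not overlap, against 5.74% of tested genes. The median log2 fold change of the 9 was 0.11, with 5 higher and 4 lower in HPC, beside -0.04 for all tested genes.

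Pairing the libraries gave no call among them either. With the pairs as a replicate block in edgeR, 0 genes passed (0%), 1.88% of tested genes had an unadjusted p under 0.05, and 1 of the 9, *Akap13*, was among these. With both libraries of pair 2 left out as well, 155 of 11906 genes passed (1.30%), 12.1% had an unadjusted p under 0.05, and of the 9 genes 0 passed and 1, again *Akap13*, had an unadjusted p under 0.05. Adjusted p values of the 9 in that fit ranged from 0.285 to 0.966, and their median log2 fold change was -0.029, with 4 of 9 higher in HPC. The values in that fit were -0.29 for *Akap1*, -0.18 for *Akap8*, -0.09 for *Akap12*, 0.18 for *Prkaca*, 0.11 for *Prkacb* and 0.19 for *Prkar2a*, and those of the other 3 are given with each gene.

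**Figure D3:**
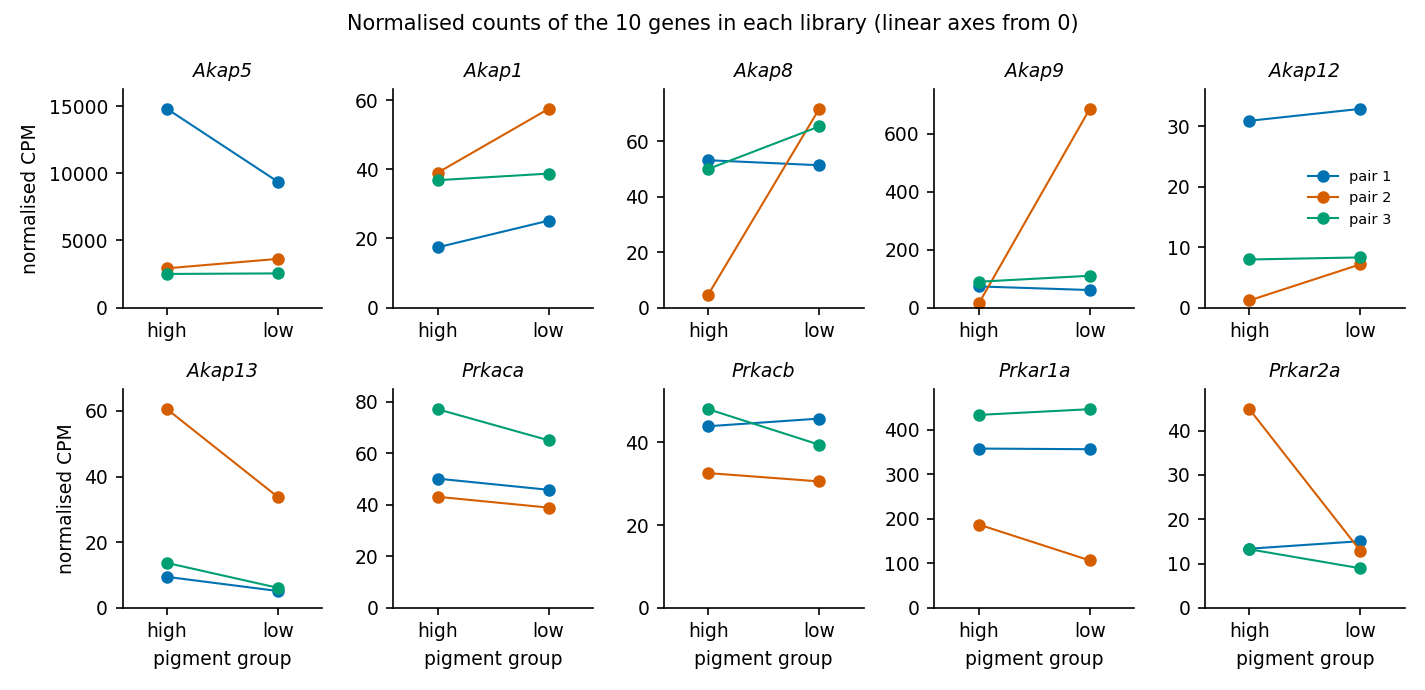
Normalised CPM of each of the 10 genes in HPC and LPC libraries, 1 panel per gene with a linear axis from 0; a line joins the libraries of a pair. The groups overlap in each panel, and on the log2 scale the libraries of pair 2 differ most in *Akap9* (-5.58), *Akap8* (-3.85) and *Akap12* (-2.32).

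Among the anchors, *Akap1* (chr11:88830792-88864586, minus strand) places the kinase on the outer mitochondrial membrane. It had 17.4, 39.0 and 36.8 CPM in HPC and 25.1, 57.5 and 38.7 CPM in LPC of pairs 1, 2 and 3, so both libraries of pair 1 were the lowest. Its log2 fold change was -0.38 ± 0.52 (SE), and HPC minus LPC was -0.52, -0.56 and -0.07 within pairs 1, 2 and 3. *Akap1* and *Akap12* were the 2 of the 10 genes lower in HPC within all pairs, where 17.2% of tested genes were. Without the LPC library of pair 2 the change was -0.05, and without the HPC library of pair 1 it was -0.10. Across the 6 libraries *Akap1* ran opposite to *Akap5* (r = -0.84).

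*Akap8* (chr17:32303672-32321238, minus strand) encodes a nuclear anchor that binds chromatin and RNA. It had 53.2, 4.66 and 50.0 CPM in HPC and 51.4, 71.8 and 65.4 CPM in LPC. The HPC library of pair 2, with 8 counts, was the only low one, and the other 5 lay between 50.0 and 71.8 CPM. The log2 fold change of -0.79 ± 0.74 (SE) was -0.28 without that library. *Akap8* shares stretches of at least 100 bases and 95% identity with transcripts of 14 other genes, so its counts are uncertain to that extent.

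*Akap9* (chr5:3928054-4081310, plus strand) encodes a large scaffold of the centrosome and Golgi. Its CPM were 72.7, 14.0 and 89.0 in HPC and 60.3, 686 and 110 in LPC. The pair 2 libraries were the lowest and the highest of all, with 24 and 2399 counts, and the other 4 lay within 1.82-fold of each other. The fitted log2 fold change was -2.27 ± 1.01 (SE), the largest of the 10 genes in size. It was -0.53 without the LPC library of pair 2, and -0.04 ± 0.18 (SE) with the block and without pair 2. In the annotation an *Akap9* exon overlaps an exon of *Cyp51*, a sterol synthesis gene, on the opposite strand, and without a stated use of strand their reads cannot be told apart there. *Akap9* also shares stretches of at least 100 bases and 95% identity with transcripts of 17 other genes, 3 of them in the table, so its counts are uncertain to that extent.

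*Akap12* (chr10:4266380-4359470, plus strand) encodes a scaffold at the plasma membrane that also binds protein kinase C. It had 30.9, 1.16 and 7.95 CPM in HPC and 32.9, 7.15 and 8.29 CPM in LPC. As for *Akap5*, both libraries of pair 1 stood above the other 4, and pair 1 exceeded pair 3 by 1.93 on the log2 scale, a size that 5.22% of tested genes reached. The r of *Akap12* with *Akap5* was 0.77, the highest among the 10 genes. Within pairs 1 and 3 the groups differed by -0.09 and -0.06, and in pair 2, with 2 and 25 counts, by -2.32. The log2 fold change of -0.25 ± 1.09 (SE) became 0.26, 0.01 and 0.81 without HPC of pairs 2 and 3 and the LPC library of pair 1. The fits with a library left out had no block, so they include differences between pairs.

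*Akap13* (chr7:75455534-75754609, plus strand) encodes an anchor that also activates the GTPase RhoA. It had 9.44, 60.5 and 13.7 CPM in HPC and 5.12, 33.7 and 6.09 CPM in LPC. Pair 2 was the highest in both groups, and the log2 difference, HPC minus LPC, was 0.84, 0.84 and 1.13 within pairs 1, 2 and 3. *Akap13* and *Prkaca* were the 2 of the 10 genes higher within all pairs, where 12.9% of tested genes were. The log2 fold change was 0.89 ± 0.99 (SE) over all libraries and 1.02 ± 0.41 (SE; adjusted p = 0.285) in edgeR with the block and without pair 2. Leaving out the HPC library of pair 2 turned it to -0.35, and leaving out the LPC one raised it to 2.29. Those fits had no block, so the high level of the remaining pair 2 library counted for its group alone. Its raw counts were 31 to 118, and stretches of at least 100 bases are shared at 95% identity with 40 other genes, 30 of them in the table.

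**Figure D4:**
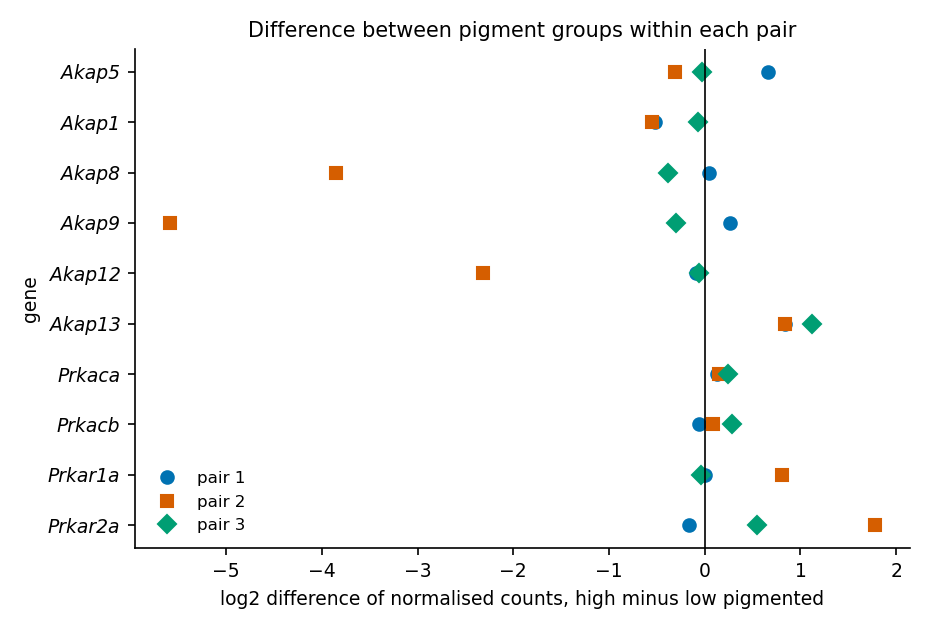
Log2 difference of normalised counts, HPC minus LPC, for each of the 10 genes within pairs 1, 2 and 3 (symbols); the vertical line marks no difference. Pairs 1 and 3 lie near 0 for most genes, *Akap13* is above 0 in each pair, and the values farthest from 0 are those of *Akap9* (-5.58) and *Akap8* (-3.85) in pair 2.

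Over all 6 libraries the catalytic subunits had the smallest ranges of the 10 genes. *Prkaca*, the main catalytic subunit, had 50.1, 43.1 and 77.0 CPM in HPC and 45.8, 38.9 and 65.0 CPM in LPC. HPC exceeded LPC by log2 differences of 0.13, 0.15 and 0.24 within the pairs. The log2 fold change was 0.19 ± 0.42 (SE), which turned to -0.11 without the HPC library of pair 3. *Prkacb*, the second catalytic subunit, had 43.9, 32.6 and 48.1 CPM in HPC and 45.8, 30.6 and 39.5 CPM in LPC. Its log2 fold change was 0.11 ± 0.40 (SE), and it was slightly below 0 (-0.02 and -0.04) without the HPC library of pair 3 or the LPC library of pair 2. The highest library exceeded the lowest by 1.98-fold for *Prkaca* and 1.57-fold for *Prkacb*, and the largest range was the 49.1-fold of *Akap9*. Without pair 2 the ranges were 1.68-fold for *Prkaca* and 1.22-fold for *Prkacb*, beside 1.25-fold for *Prkar1a*, 1.31-fold for *Akap8* and 1.82-fold for *Akap9*, so *Prkaca* was then no longer among the smallest.

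*Prkar1a*, the type I regulatory subunit, had the highest mean CPM of the 9 genes in both groups. It had 357, 187 and 433 CPM in HPC and 356, 106 and 446 CPM in LPC, with both libraries of pair 2 the lowest. Its log2 differences within pairs were 0.01, 0.81 and -0.04, and the log2 fold change was 0.11 ± 0.58 (SE). Outside pair 2 its highest and lowest libraries differed by 1.25-fold. The change was -0.30 without the LPC library of pair 2, -0.17 without the HPC library of pair 3, and -0.03 ± 0.12 (SE) with the block and without pair 2.

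*Prkar2a*, the type II regulatory subunit, which many anchors prefer, had 13.3, 44.8 and 13.2 CPM in HPC and 15.0, 12.9 and 8.92 CPM in LPC. The HPC library of pair 2 stood alone above the other 5. The log2 fold change was 0.94 ± 0.68 (SE), and 0.12 without that library. *Prkar2b*, the other type II subunit in the table, had 26 to 132 counts and a difference of -0.04 ± 0.59 (SE) on the log2 scale, with an adjusted p of 0.9996 in edgeR.

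Counts of the regulatory subunits (*Prkar1a*, *Prkar2a* and *Prkar2b*) were set against those of the catalytic subunits (*Prkaca* and *Prkacb*) within each library. There were 4.07, 3.26 and 3.67 regulatory counts per catalytic count in HPC and 4.21, 1.89 and 4.48 in LPC. Both libraries of pair 2 had the lowest ratios, and the groups overlapped. *Prkar1a* made up 92.2% to 95.1% of the regulatory counts in pairs 1 and 3, and 75.7% and 80.9% in HPC and LPC libraries of pair 2. *Prkaca* made up 50.0% to 62.2% of the catalytic counts.

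The other genes of cAMP signalling were described by lists. Of 22 further anchoring proteins, 13 were tested; 4 were higher and 9 lower in HPC, with 0 passing and a median log2 fold change of -0.13. This direction depended on which libraries were used: the medians within pairs 1, 2 and 3 were 0.18, -1.10 and 0.33, and with the block and without pair 2 the median was 0.28, with 10 of 13 higher. Without 1 library it ranged from -0.45 (LPC of pair 3) to 0.31 (LPC of pair 2), and it was also above 0 without HPC of pair 2 (0.17) or LPC of pair 1 (0.01). The most abundant were *Acbd3*, a Golgi protein, *Akap11* and *Akap8l*. *Akap11*, an anchor that also binds the kinase GSK3, had 83.3, 15.1 and 96.9 CPM in HPC and 65.6, 49.2 and 83.8 CPM in LPC. *Gskip*, a small anchor that binds GSK3 too, had the smallest p, with 94, 39 and 203 counts in HPC and 50, 36 and 143 in LPC. Its log2 fold change was 0.87 ± 0.59 (SE; adjusted p = 0.9996 in edgeR). It was the 1 of the 13 whose groups did not overlap in CPM, against 5.74% of all tested genes. The gap was narrow, with 15.3 CPM in its lowest HPC library and 15.0 CPM in its highest LPC library. *Rab32*, both an anchor and a GTPase of melanosome formation singled out after the values were seen, had a log2 fold change of -0.13 ± 0.55 (SE). Of 6 other kinase subunits and inhibitors, 5 were tested, with 2 higher, 3 lower, 0 passing and a median of -0.04. That median was -0.21 with the block and without pair 2, and ranged from -0.13 (without HPC of pair 2) to 0.06 (without LPC of pair 1) when 1 library was left out. The most abundant were *Prkx*, a related kinase, and the inhibitors *Pkia* and *Pkib*, with log2 fold changes of 0.20, -0.15 and 0.76.

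On the side that makes cAMP, 15 of 31 listed receptors, G proteins and adenylyl cyclases were tested; 7 were higher and 8 lower, 0 passed, and the median was -0.005 on the log2 scale. It was -0.16 and -0.12 without HPC of pair 1 or 3, 0.09 without HPC of pair 2, 0.24 without LPC of pair 1, and -0.011 with the block and without pair 2. The G protein genes *Gnb2*, *Gnb1* and *Gnai2* were the most abundant, with log2 fold changes of -0.02, -0.10 and 0.09, and *Adcy9*, a cyclase with 5 to 76 counts, had the smallest p at a log2 fold change of -1.30 (adjusted p = 0.9996 in edgeR). *Mc1r*, also named after its values were seen, had 1577, 69 and 1191 counts in HPC and 915, 271 and 1237 in LPC. Within pairs, HPC minus LPC was 0.76, -0.94 and 0.10 on the log2 scale, so the groups overlapped and pair 2 went the other way. *Gnas*, the stimulatory G protein gene downstream of it, had a log2 fold change of -0.005 ± 0.64 (SE).

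Of 16 phosphodiesterases, which break down cAMP, 9 were tested, with 4 higher, 5 lower, 0 passing and a median of -0.59. Within pairs 1, 2 and 3 the medians were 0.71, -2.02 and -0.08, and with the block and without pair 2 the median was 0.35, with 7 of 10 tested higher. In HPC of pair 2, *Pde4b*, *Pde4c*, *Pde8a* and *Pde10a* had 0 counts, *Pde1c* had 2 and *Pde4a* 12. *Pde7a*, *Pde4d* and *Pde11a* had 51, 88 and 356 there, so the pair 2 median and the median of -0.59 rest partly on counts near 0. Leaving out 1 library gave medians of -1.47 (HPC of pair 1) to -0.05 (LPC of pair 2). *Pde11a*, *Pde7a* and *Pde4d* had the highest mean CPM, and *Pde7a* had the smallest p, at 0.77 ± 0.53 (SE; adjusted p = 0.9996 in edgeR). Of the 14 CREB family members, coactivators, SIK kinases and EPAC genes, 13 were tested, with 5 higher, 8 lower, 0 passing and a median of -0.06. The median was -0.59 without HPC of pair 3, 0.18 and 0.09 without LPC of pair 3 or 2, and -0.24 with the block and without pair 2. *Crebbp*, the CREB coactivator, had log2 differences of -0.43, -1.68 and -1.16 within pairs 1, 2 and 3 (log2 fold change -1.45 ± 0.86, SE). It did not pass in edgeR over all libraries (adjusted p = 0.9996) or in the blocked fit that left out pair 2 (adjusted p = 0.0616). *Rapgef3*, which encodes EPAC, and *Creb1* had log2 fold changes of 0.03 and -0.06.

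Among 14 genes with CREB-driven promoters, all tested, 13 were higher and 1 lower in HPC, with a median of 0.46, beside 47.0% higher and a median of -0.04 over all tested genes. The list was chosen with earlier results of these data known, so its comparisons with all tested genes are descriptions only. In edgeR 0 passed over all libraries. The medians within pairs 1, 2 and 3 were 0.37, 0.16 and 0.52. Among the genes higher over all libraries, values in pair 2 ran both ways. The log2 difference there was -3.36 for *Per1* and -3.10 for *Fos*, but 2.44 for *Junb* and 3.68 for *Sik1*. These values rest on few counts. HPC and LPC of pair 2 had 0 and 11 for *Per1*, 2 and 44 for *Fos*, 32 and 11 for *Junb*, and 32 and 4 for *Sik1*. *Sik1* had the highest log2 fold change of the list (1.695), on 1 to 32 counts. Within pairs 1 and 3 it was lower in HPC, by log2 differences of -0.55 and -2.80. Without the HPC library of pair 3 the median was 0.19, and without the LPC library of pair 1 it was 0.26. With the block and without pair 2 the median was 0.30, with 11 of 14 higher, and 3 of the 14 passed beside 1.30% of tested genes: *Cdkn1a*, a cell-cycle inhibitor also induced by p53 (0.80 ± 0.13, SE; adjusted p = 0.00171 in edgeR), the immediate early gene *Fos* (1.90 ± 0.46, adjusted p = 0.0397) and *Nr4a3* (1.00 ± 0.25, adjusted p = 0.0433). *Fos* had 77, 2 and 107 counts in HPC and 31, 44 and 20 in LPC, so pair 2 ran opposite to the others. For *Nr4a3* too the log2 difference in pair 2 was below 0 (-0.18). Over all libraries its log2 fold change was 0.63 ± 0.78 (SE). *Pde4b*, the 1 gene that was lower, had 24, 0 and 64 counts in HPC and 82, 14 and 145 in LPC. *Mitf* and *Ppargc1a*, a coactivator of mitochondrial genes, were the most abundant after *Cdkn1a*, with log2 fold changes of 0.17 and 0.47.

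The last list held 26 genes of proteins bound by AKAP5 (such as calcineurin, protein kinase C, cyclases and channels) and of NFAT factors and calcineurin regulators. Of these, 16 were tested, with 9 higher, 7 lower, 0 passing and a median of 0.07. It was 0.06 with the block and without pair 2, and ranged from -0.06 (without HPC of pair 3) to 0.09 (without HPC of pair 1) when 1 library was left out. The calcineurin subunits *Ppp3ca* and *Ppp3r1* and the calcineurin-responsive factor *Nfatc3* had the highest mean CPM. *Ppp3ca* had 164, 332 and 155 CPM in HPC and 160, 218 and 136 CPM in LPC, a log2 fold change of 0.34 ± 0.44 (SE). *Rcan1*, a calcineurin regulator, had the smallest p at 1.31 ± 0.78 (SE; adjusted p = 0.9996 in edgeR), through its 61.1 CPM in the HPC library of pair 2 against 7.15 in the LPC one. Between pairs 1 and 3 the median log2 difference of this list was -0.33, and that of the other anchors was 0.01, while *Akap5* differed by 2.22. *Akap5* was chosen for variation between pairs, so this contrast is a description only.

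**Figure D5:**
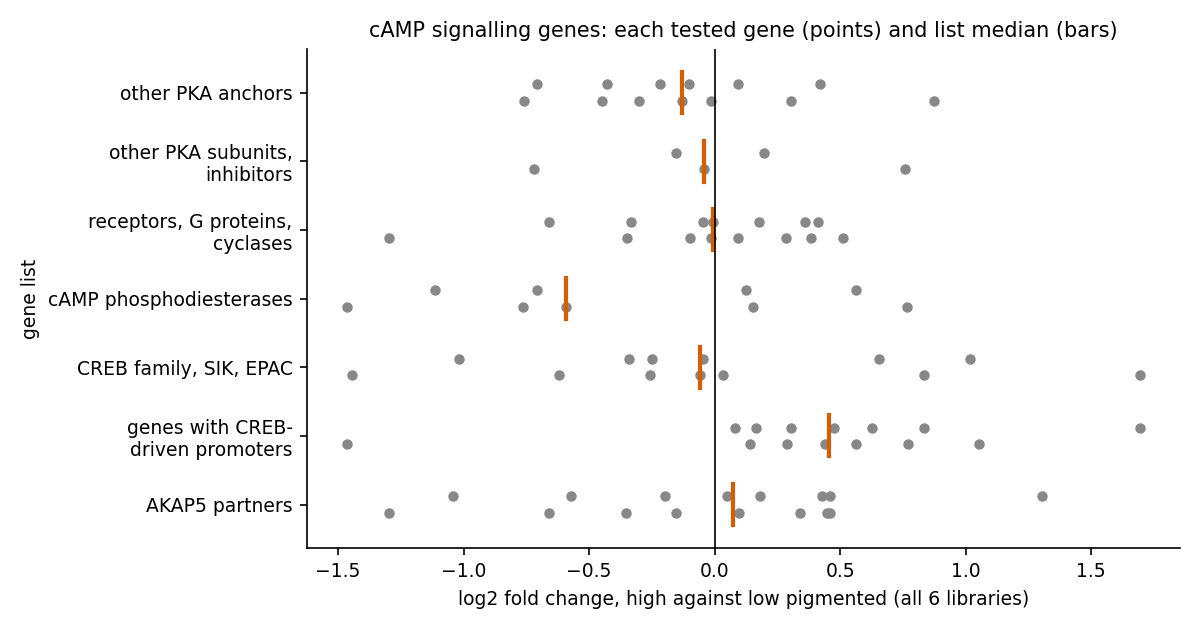
Log2 fold change, HPC against LPC over all 6 libraries, of each tested gene (points) in 7 lists of cAMP signalling genes, with the list median as a bar; genes can be in more than 1 list, and vertical offsets only separate points. Medians lie between -0.59 for phosphodiesterases and 0.46 for genes with CREB-driven promoters, and no gene passed the test in this comparison. Several phosphodiesterases had 0 counts in the HPC library of pair 2.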

How the data were processed

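The deposited table holds raw counts of reads per gene, made by the authors; its tally rows are those that HTSeq writes, and STAR and GRCm38 are named in the submitters' processing notes. Versions, annotation and strand setting are not given in the sources used here. Rows of reads in no gene (12.4% to 29.5% of tallied reads) or several genes were left out. Counts were tested with edgeR 4.0.16 (quasi-likelihood, robust, filterByExpr at a minimum count of 10, TMM, 2 groups, no covariate) in R 4.3.3, with p values adjusted over all genes tested. DESeq2 1.42.0, other filters and scaling, the replicate block and leaving out libraries were alternatives. Standard errors come from the test statistic, and log2 CPM use a prior count of 2.

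Members, lists and alternatives were chosen with earlier results of these data known. All 10 members were named, and from each list the 3 genes with the highest mean CPM and the gene with the smallest p. Same-suffix libraries deviated together from their group means (correlations across genes of 0.56, 0.38 and 0.51, each over the minimum of 0.1). The suffix was therefore taken to pair them in the blocked alternatives and the differences within pairs. The main test had no block, so its standard errors and p values include differences between pairs. No 2 libraries agreed within sampling noise. Shared sequence was searched with blastn 2.17.0 in GENCODE vM21 transcripts.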

Additional observations from a re-analysis of the deposited data

How the results depend on the processing

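Over all genes, 0 passed in edgeR or DESeq2 under each scaling, filter and single library left out, and 155 passed with the replicate block and without pair 2. Of 108 values of the 9 members other than *Akap5*, 98 kept their direction and 0 crossed the threshold. Fits with 1 library left out had no block, so an incomplete pair added differences between pairs to the group comparison. Leaving out 1 library gave ranges of log2 change of -0.95 to 1.14 for *Akap5*, -1.76 to 0.81 for *Akap12*, -0.35 to 2.29 for *Akap13*, -0.11 to 0.43 for *Prkaca*, -0.036 (without the LPC library of pair 2) to 0.25 for *Prkacb* and -0.30 to 0.50 for *Prkar1a*. With the block alone the value of *Akap5* was 0.11, and with the block and without pair 2 that of *Prkar1a* was -0.029; pairing changed no call among these 9 genes. Over all tallied reads the *Akap5* share was 1.56%, 0.0921% and 0.273% in HPC and 1.04%, 0.198% and 0.282% in LPC (pairs 1 to 3); without the 3 rows over 5% it was 2.10%, 0.361%, 0.351%, 1.31%, 0.441% and 0.351%. Depth limits *Akap12* and *Akap8* most, with 2 and 8 counts in HPC of pair 2.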
